A study of Caenorhabditis elegans with 2 samples.

Results

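The regions described here lie at 10 *Caenorhabditis elegans* genes of heterotrimeric G protein signalling, out of 19973 annotated protein-coding genes. The genes are *egl-30*, *goa-1*, *gsa-1*, *gpb-1*, *gpb-2*, *eat-16*, *egl-10*, *egl-8*, *dgk-1* and *unc-73*. A region was counted where its summit lay in the gene body or within 5 kb of it. ChIP-seq, the sequencing of DNA recovered with an antibody against a chromatin protein, was used to map LIN-11, a LIM homeodomain transcription factor. The 2 samples are biological replicates of whole L2 larvae (the second stage after hatching) of strain OP62 (unc-119(ed3) III; wgIs62), pooled from males and females of unknown age. Both carry the same alleles, which include a tagged *lin-11* insertion, described in the labels of replicate 1 as GFP-FLAG at the C terminus, and they form 1 group with no second genotype or condition. The sources used here give neither the promoter of the transgene nor the number of animals. In whole larvae, a weak region cannot be told apart from a strong region present in few cells.

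Heterotrimeric G proteins relay signals from seven-pass receptors. The alpha subunit exchanges GDP for GTP, parts from the beta and gamma subunits and acts on effectors until it hydrolyses its GTP, a step that RGS proteins speed up. In worm motor neurons the Gq alpha subunit EGL-30 promotes acetylcholine release through the phospholipase C beta EGL-8 and the exchange factor UNC-73, and the Go alpha subunit GOA-1 and the diacylglycerol kinase DGK-1 oppose it. Egg laying and locomotion depend on this balance.

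In all, 110 of the 30000 candidate regions called on the pooled reads lay at these genes, as did 17 of the authors' 1917 optimal peaks. Each replicate's own list of 30000 regions held 111. An optimal peak lay in the body or within 5 kb of 8 of the 10 genes, beside 23.3% of all protein-coding genes. The promoter window runs from 1000 bp before any start of a protein-coding transcript to 200 bp past it. It held an optimal peak at 4 of the 10 genes, beside 8.39% of all. The genes were chosen by pathway and with the pooled signal of the *egl-30* promoter peak in view, so nothing is read from these shares and no test was made. Counting summits in the gene body only, 4 of the 10 genes had an optimal peak, beside 2.25% of all protein-coding genes, and within 1 kb it was again 4, beside 11.4%. The 10 genes had a median length of 6082.5 bp, against 2027 bp over all protein-coding genes, and the part of length in these shares was not tested. Of the candidates at the genes, 15.5% were optimal peaks, beside 6.39% of all pooled candidates. The density of candidates was 0.546 per kb of the windows searched, against 0.299 per kb of the nuclear genome, and that of optimal peaks was 8.44 per 100 kb, against 1.91. The windows are gene bodies with 5 kb on each side, and the density in such windows at all protein-coding genes is not given here. The *egl-30* peaks are included, and overlapping peaks were counted separately. Nothing is read from these densities either.

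**Figure D1:**
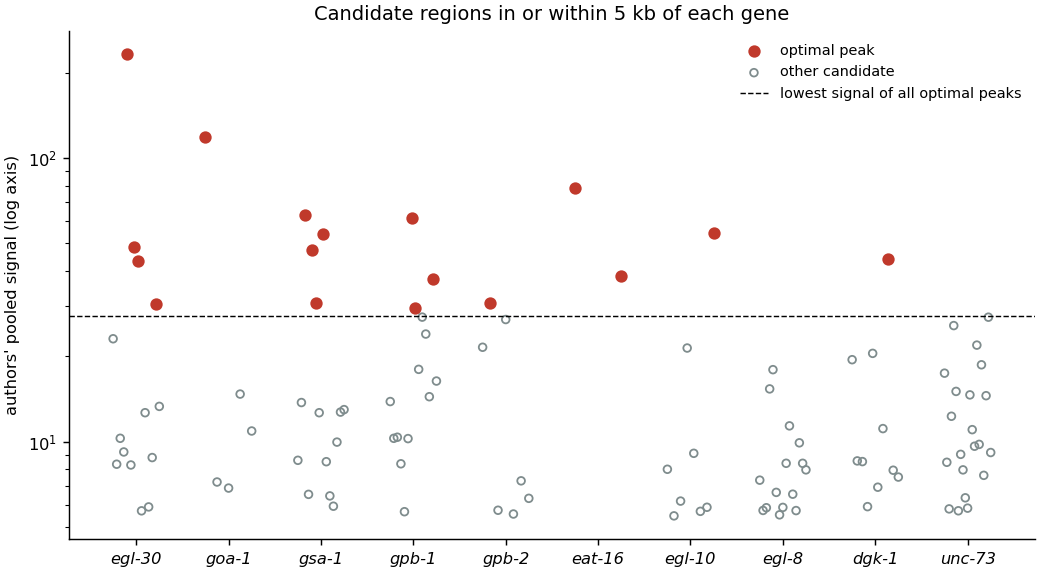
Authors' pooled signal (log axis) of each candidate region in or within 5 kb of the 10 genes, ordered within a gene by position. Filled points are the 17 optimal peaks, open points the other candidates, and the dashed line is the lowest signal of any optimal peak (27.8). The highest point is at egl-30 (232.0), and egl-8 and unc-73 have no filled point.

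The signal is the authors' own value for a region and was used only to describe and rank regions within a list. By signal, the optimal peaks are the pooled regions of rank 1 to 1917. The last region inside it had a signal of 27.84 and the first outside it 27.82. The lowest optimal peak at the 10 genes had 29.5. Just outside the list were a *gpb-1* region with 27.5 (rank 1945), a region near *unc-73* with 27.5 (rank 1950) and a *gpb-2* promoter region with 27.0 (rank 1992). The median signal of the 17 peaks was 47.6, beside 45.98 over all 1917, and 9 of the 17 were among the 958 strongest.

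The optimal peaks on chromosomes II, V and X are shown by the 101 bases around their summits, because they come from genes with different roles, a beta subunit, an RGS protein and a kinase, and show both the presence and the absence of the letters counted further on. They are plus strand bases of WBcel235 (ce11) from RefSeq, and all positions given are of that build. Capitals mark TAAT, the core known for homeodomain factors, and GAGAGA, each on either strand.
gpb-1 chrII:11746870-11746970: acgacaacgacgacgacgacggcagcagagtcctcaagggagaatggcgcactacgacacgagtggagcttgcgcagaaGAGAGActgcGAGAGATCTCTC
gpb-1 chrII:11747069-11747169: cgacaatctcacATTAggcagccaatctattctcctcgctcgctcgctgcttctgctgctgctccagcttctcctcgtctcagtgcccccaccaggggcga
gpb-1 chrII:11751640-11751740: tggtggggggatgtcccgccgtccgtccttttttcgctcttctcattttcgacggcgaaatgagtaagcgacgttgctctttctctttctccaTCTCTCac
egl-10 chrV:12465406-12465506: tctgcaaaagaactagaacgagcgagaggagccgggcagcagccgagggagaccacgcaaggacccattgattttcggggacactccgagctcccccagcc
dgk-1 chrX:993058-993158: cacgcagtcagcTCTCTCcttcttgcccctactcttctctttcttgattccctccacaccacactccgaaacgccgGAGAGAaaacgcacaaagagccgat
The first *gpb-1* stretch ends in GAGAGA repeats and the *dgk-1* stretch holds 2 matches. The second *gpb-1* stretch holds the single TAAT core of these 5, and the *egl-10* stretch has neither word.

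Among the alpha subunits, *egl-30* (WBGene00001196, I:1835661-1841965, plus strand) carried the strongest region at any of the 10 genes. It lay at I:1835504-1835704, with its summit 53 bp upstream of the annotated start of the gene and 172 bp upstream of that of C53H9.4, which shares the promoter. Its signal was 232.0 in the pooled list, with rank 6, 100.9 in replicate 1, with rank 2, and 132.8 in replicate 2, with rank 10. The replicate summits lay 2 and 4 bp from the pooled one, so the site was placed almost identically in both. By pooled signal the nearest regions above it were at *hsp-60* with Y22D7AL.10 (254.4) and at *iff-2* with F54C9.14 (237.3). Those just below were at *rpl-15* with K11H12.8 (220.8) and at an X chromosome site in no promoter window (209.8).

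A pair of weaker *egl-30* peaks lay inside the gene, in the 5' UTR of transcripts that begin at an internal start. The peak at I:1836783-1837106 had its summit 294 bp past that start and a pooled signal of 48.7 (rank 867). The overlapping peak at I:1837000-1837323 had its summit 511 bp past it and a signal of 43.5 (rank 1040). Replicate 2 placed a summit at each, with signals of 25.9 (rank 1096) and 17.3 (rank 1929). Replicate 1 placed 1 summit there, with a signal of 30.3 (rank 364), 65 bp from the second pooled summit and 152 bp from the first. The fourth peak, at I:1841898-1842221, lay past the 3' end, 385 bp upstream of the start of *emr-1*, which encodes the nuclear envelope protein emerin. It had a pooled signal of 30.5 (rank 1690), with 10.4 in replicate 1 (rank 2954) and 20.7 in replicate 2 (rank 1513). The 10 other candidates at *egl-30* ranged from 5.70 to 23.1, and the strongest of them lay in the promoter windows of C53H9.2 and C53H9.3.

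*goa-1*, the Go alpha subunit gene (WBGene00001648, I:7522116-7526716, plus strand), had 1 strong region far from its start. It lay at I:7518311-7518634, in intergenic sequence 3643 bp upstream of *goa-1*, and the nearest protein-coding start, that of C26C6.9, was at a distance of 3347 bp. Its pooled signal was 118.8 (rank 105), with 55.2 in replicate 1 (rank 55) and 65.2 in replicate 2 (rank 160). The promoter window of *goa-1* itself held only a weak candidate, 818 bp upstream, with 14.7 in the pooled list (rank 4961), 7.98 in replicate 1 and 4.84 in replicate 2.

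*gsa-1*, which encodes the Gs alpha subunit that stimulates adenylyl cyclase (WBGene00001745, I:1068484-1074343, plus strand), had 4 optimal peaks, 3 of them in its own promoter windows. The strongest of the 4, at I:1066990-1067313, lay in the promoter window of *vps-4*, a gene of the endosomal sorting machinery, 253 bp upstream of its start and 1332 bp upstream of *gsa-1*. It had a pooled signal of 62.7 (rank 516), 30.4 in replicate 1 (rank 360) and 30.1 in replicate 2 (rank 875). A peak in an intron at I:1069766-1070089, 455 bp upstream of an internal transcript start, had 53.9 (rank 731), with 26.7 in replicate 1 (rank 493) and 29.0 in replicate 2 (rank 930).

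At the first *gsa-1* start there was again a pair of overlapping peaks. The summit of I:1068141-1068464 lay 181 bp upstream, with a pooled signal of 47.6 (rank 904), and that of I:1068360-1068683 lay 38 bp downstream in the 5' UTR, with 30.9 (rank 1669). Replicate 2 had a summit at each, with 41.4 (rank 478) and 19.4 (rank 1658). Replicate 1 had 1 summit, with 16.2 (rank 1262), 40 bp from the downstream one and 179 bp from the upstream one. The 10 other candidates at *gsa-1* did not exceed 13.7.

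**Figure D2:**
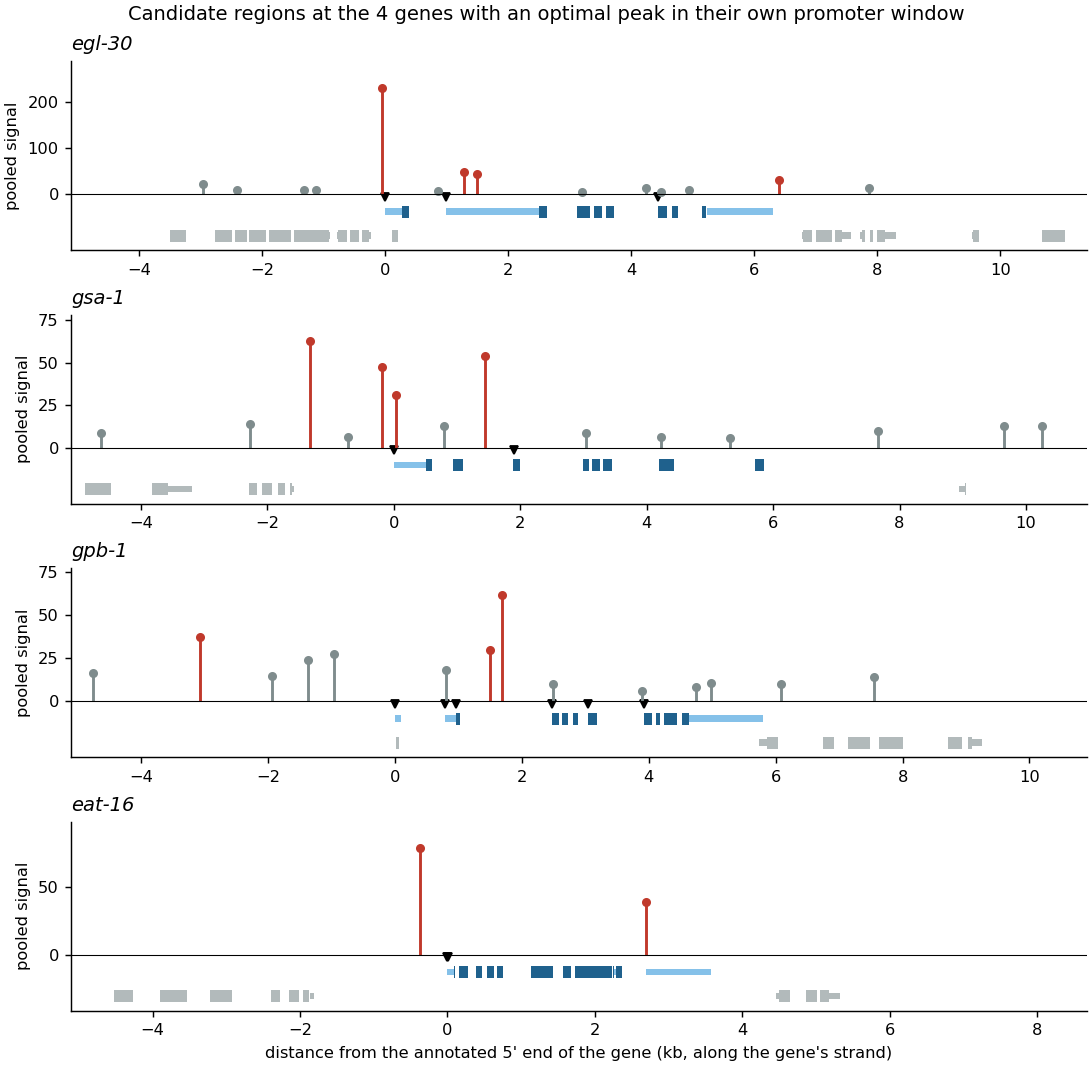
Pooled signal (linear axis, scaled separately for each gene) of candidate regions at egl-30, gsa-1, gpb-1 and eat-16 against distance from the annotated 5' end of the gene in kb, along the gene's strand. Red marks optimal peaks and grey other candidates; dark blue boxes are coding exons, light blue boxes UTRs, black triangles transcript starts, and grey boxes exons of neighbouring protein-coding genes. The strongest egl-30 line (232.0) sits at the first start, whereas the strongest gpb-1 line (61.6) sits between exons.

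Of the beta subunits, *gpb-1* encodes the one shared by most alpha subunits (WBGene00001679, II:11742811-11748611, minus strand), and it had 3 optimal peaks. The strongest, at II:11746758-11747081, was intronic, with its summit 1691 bp past the 5' end of the gene and 776 bp upstream of an internal transcript start. Its pooled signal was 61.6 (rank 541), with 34.6 in replicate 1 (rank 251) and 33.1 in replicate 2 (rank 731). An overlapping peak at II:11746957-11747280, 975 bp upstream of the same internal start, had 29.5 (rank 1758), with 11.5 in replicate 1 (rank 2395) and 12.4 in replicate 2 (rank 2963). Both count as promoter peaks through the internal start alone, and with a window of 500 bp upstream and 100 bp downstream *gpb-1* was no longer among the genes with a promoter peak.

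The third *gpb-1* peak, at II:11751528-11751851, was intergenic and 3079 bp upstream of the gene. It had 37.4 (rank 1282), with 18.1 in replicate 1 (rank 1037) and 20.5 in replicate 2 (rank 1533). The 11 other candidates reached 27.5. That strongest one lay 965 bp upstream of the first start and had a match in replicate 1 (11.5, rank 2380). It had no replicate 2 summit within 100 bp, although a replicate 2 region of 20.3 (rank 1567) overlapped it.

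*gpb-2*, the divergent beta subunit that pairs with the RGS proteins EAT-16 and EGL-10 (WBGene00001680, I:7318290-7321085, minus strand), had 1 optimal peak within 5 kb, and it lay at other genes. The peak at I:7314349-7314672 was past the 3' end of *gpb-2*, 232 bp upstream of the start of F13G3.10 and 986 bp upstream of that of *mif-3*. Its pooled signal was 30.9 (rank 1670), with 11.7 in replicate 1 (rank 2333) and 21.1 in replicate 2 (rank 1482). The region in *gpb-2*'s own promoter window, 530 bp upstream of its start, missed the optimal list. It had 27.0 (rank 1992), with 17.7 in replicate 1 (rank 1078) and 12.8 in replicate 2 (rank 2830).

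The RGS genes differed in where their peaks lay. *eat-16*, whose product acts on EGL-30 (WBGene00001145, I:9722716-9726284, plus strand), had 2 candidates in all, and both were optimal peaks. The peak at I:9722182-9722505, 372 bp upstream of the start, had a pooled signal of 78.5 (rank 314), with 49.7 in replicate 1 (rank 91) and 39.6 in replicate 2 (rank 530). The other, at I:9725245-9725568, had its summit in the last exon, in a coding stretch of 13 bp that is 3' UTR in another transcript. It had 38.5 (rank 1229), with 13.2 in replicate 1 (rank 1831) and 22.1 in replicate 2 (rank 1382). Coding exons outside promoter windows held 18 of all 1917 optimal summits (0.939%), and this is the single one at the 10 genes. *eat-16* lies in an intron of *ocrl-1*, which runs on the opposite strand, so both peaks are also intronic in that gene. The summit of the peak upstream of *eat-16* also lay in the noncoding RNA genes C16C2.7 and C16C2.8.

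*egl-10*, whose product acts on GOA-1 (WBGene00001179, V:12453290-12463008, minus strand), had 1 optimal peak, 2448 bp upstream of the nearest *egl-10* start, in an exon of the noncoding RNA gene F28C1.14. The peak at V:12465294-12465617 had a pooled signal of 54.4 (rank 715), with 24.8 in replicate 1 (rank 573) and 28.1 in replicate 2 (rank 974). The replicate summits lay 1 and 2 bp from the pooled one. The promoter window of *egl-10* held 1 candidate, with a signal of 5.87 (rank 27082) and no match in either replicate. In a coding exon of *egl-10*, 6947 bp past the nearest start, a candidate of 21.4 (rank 2765) had 15.1 in replicate 1 (rank 1426) and 7.91 in replicate 2 (rank 6416).

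Of the effectors, *dgk-1*, the diacylglycerol kinase gene (WBGene00000958, X:983903-991456, minus strand), had 1 optimal peak, in intergenic sequence 1652 bp upstream of its start. The peak at X:992946-993269 had a pooled signal of 44.0 (rank 1025) and 38.5 in replicate 2 (rank 556). In replicate 1 the nearest summit was 219 bp away, with a signal of 9.99 (rank 3219). The region that replicate 1 called there overlapped the peak but was far down its list.

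*egl-8* (WBGene00001177, V:20818-43704, plus strand) and *unc-73* (WBGene00006805, I:3999300-4031739, minus strand), the longest genes of the 10, had no optimal peak. At *egl-8*, the phospholipase C beta gene, 15 candidates ran from 5.52 to 17.9. The strongest, in an intron 6826 bp past the nearest start, had rank 3533 in the pooled list and 10.8 in replicate 1 (rank 2756), with no match in replicate 2. None of the 15 lay in an *egl-8* promoter window. At *unc-73*, which encodes the Trio-type exchange factor, 21 candidates ran from 5.71 to 27.5. The strongest of them lay in the promoter window of *unc-89*, 3687 bp upstream of *unc-73*, with 14.2 in replicate 1 (rank 1581) and 13.7 in replicate 2 (rank 2574). Inside *unc-73* the strongest was in a coding exon, with 25.7 (rank 2140) and 20.5 in replicate 1 (rank 825), and it had no replicate 2 summit within 100 bp. Its summit also lay in the protein-coding gene F55C7.2, 461 bp past the start of that gene. The nearest *unc-73* start was 2440 bp away, and which of the genes the coding exon belongs to was not resolved.

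**Figure D3:**
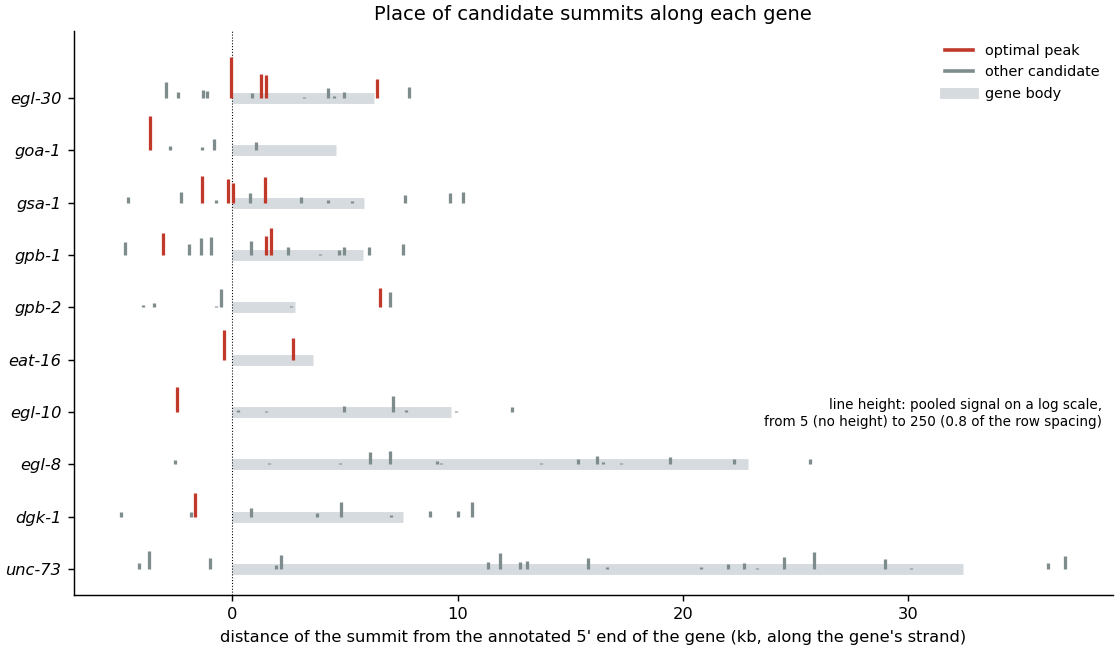
Candidate summits along the 10 genes, by distance in kb from the annotated 5' end along the gene's strand; grey bars are gene bodies, red lines optimal peaks and grey lines other candidates, with line height giving the pooled signal on a log scale. Optimal peaks of goa-1, egl-10 and dgk-1 lie 3643, 2448 and 1652 bp before the gene, and none lies on the long bodies of egl-8 and unc-73.

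Of the 17 optimal peaks, 7 lay in a promoter window of the gene itself, 3 in the window of a neighbour alone and 7 in no promoter window. By summit, 7 lay in the body of one of the genes. Over all optimal peaks, 64.8% had the summit in some promoter window, beside these 10 of 17. For 12 of the 17 the nearest protein-coding start belonged to the gene described, and the nearest starts of the other 5 belonged to neighbours. Some of the peaks overlapped one another. At *egl-30*, *gsa-1* and *gpb-1*, 6 of the 17 peaks overlapped another optimal peak, with summits 217, 219 and 199 bp apart, whereas 40 of all 1917 did (2.09%). Merged, the 17 peaks form 14 stretches. This was noticed in the values and was not tested.

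**Figure D4:**
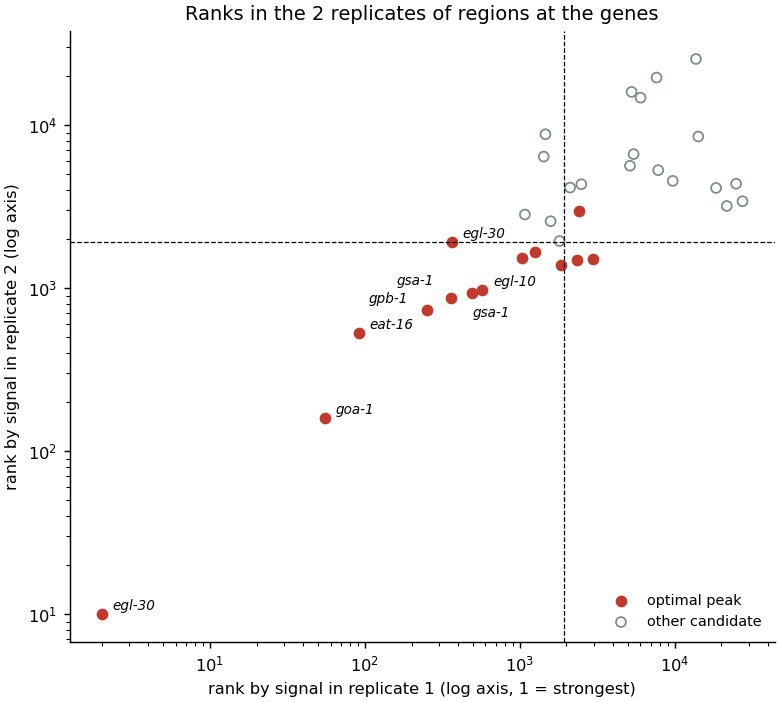
Rank by signal in replicate 1 against rank in replicate 2 (log axes, 1 is the strongest region) of the 34 pooled regions at the 10 genes that had a summit within 100 bp in both replicates. Filled points are optimal peaks and dashed lines mark rank 1917; the egl-30 promoter peak (ranks 2 and 10) lies at the lower left, followed by goa-1 (55 and 160).

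Most of the stronger regions had a summit in both replicates. Of the 17 optimal peaks, 14 had a summit within 100 bp in both replicates (82.4%), beside 91.4% of all optimal peaks. The 3 others, at *egl-30* (rank 867), *gsa-1* (rank 904) and *dgk-1*, lacked a replicate 1 summit, as did 6.89% of all optimal peaks, although a replicate 1 region overlapped each of them. Counting only matches among the 1917 strongest regions of a replicate, 11 were found in replicate 1, 15 in replicate 2 and 10 in both, the last beside 57.4% of all optimal peaks. Of all 110 candidates, 34 had a match in both replicates (30.9%, beside 25% of all pooled candidates). Replicate 1 alone matched 30 more, replicate 2 alone 27, and 19 had no match.

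The bases at the summits were then counted, in the 50 bp on each side. GAGAGA or its reverse complement was present at 8 of the 17 peaks (47.1%), beside 27.2% of all optimal peaks and 8.17% of the 28083 other candidates. These 8 lay at *egl-30*, where every optimal peak held the word, and at *gsa-1*, *gpb-1* and *dgk-1*. The optimal peaks at *goa-1*, *gpb-2*, *eat-16* and *egl-10* did not hold it. TAAT was present at 3 (17.6%), beside 28.8% and 45.5%. TAATTA, which contains TAAT, was present at 0 of 17, beside 1.04% and 2.48%. A count of 0 among 17 independent peaks would allow a share of up to 17.6%, but these peaks form 14 stretches and were not drawn independently. GCGCGC was present at 3 (17.6%), beside 11.9% and 1.61%. The *egl-30* promoter summit held 1 GAGAGA match and the 5' UTR summit of *gsa-1* held 7, some overlapping. The median GC content was 54.5% at the 17 peaks (42.6 to 67.3%), 50.5% at all optimal peaks and 43.6% at the other candidates, and the part of base composition in the letter counts was not tested. A match does not show a site.

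**Figure D5:**
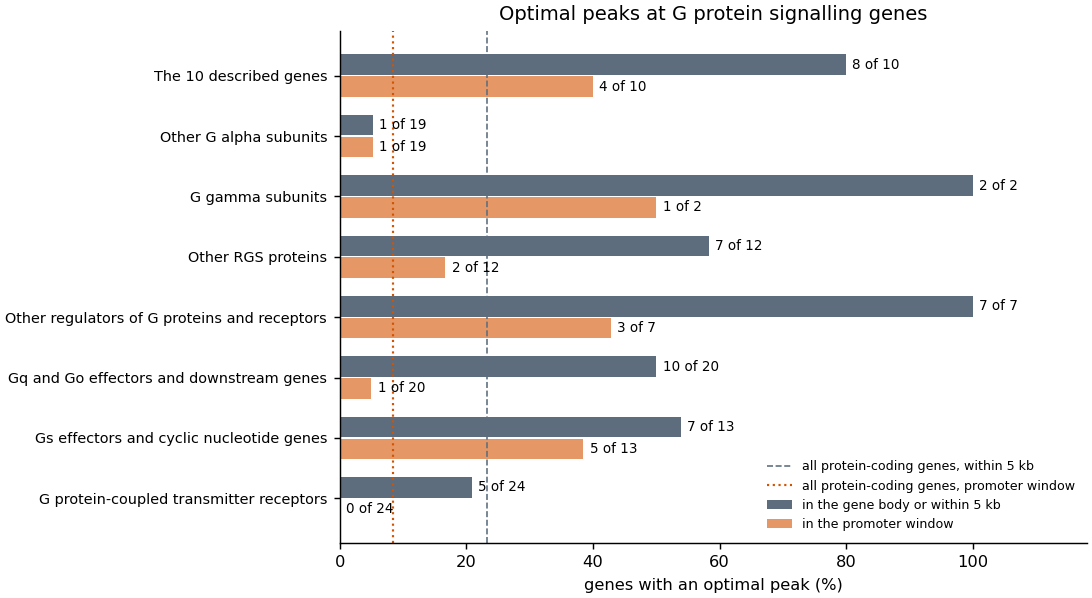
Share of genes (%) with an optimal peak in the gene body or within 5 kb (dark bars) and in the promoter window (orange bars), for the 10 genes and 7 further lists; dashed and dotted lines give the shares over all protein-coding genes (23.3% and 8.39%). The 24 receptor genes have 5 and 0, and the 7 regulators 7 and 3.

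Beyond the 10 genes, 97 further genes of the pathway were looked up in 7 lists. Of these, 39 had an optimal peak in the body or within 5 kb (40.2%, beside 23.3% of all protein-coding genes) and 13 in the promoter window (13.4%, beside 8.39%). The first count was 9 genes in the gene body only (beside 2.25% of all), 18 within 1 kb (beside 11.4%) and 20 with each summit given to the nearest start only (beside 8.48%). In the stronger 50% of the optimal peaks it was 23 within 5 kb (beside 13.4%) and 7 in the promoter window (beside 4.84%). The lists were chosen with earlier results known and were not tested. The other alpha subunits had 1 of 19 genes with a promoter peak, *gpa-7*, with a pooled signal of 59.7 (rank 589), 12.1 in replicate 1 and 42.6 in replicate 2. No other gene of that list had an optimal peak within 5 kb. Of the 2 gamma subunit genes, 2 had an optimal peak within 5 kb (beside 23.3% of all genes) and 1 in the promoter window (beside 8.39%). *gpc-2* had a promoter peak of 65.0 (rank 470), shared with *hrpf-1*, with rank 115 in replicate 1 and rank 1951 in replicate 2. *gpc-1* had 2 optimal peaks within 5 kb, outside its promoter window. The peak 4900 bp upstream of *gpc-1* had 84.2 (rank 268), with rank 194 in replicate 1 and rank 384 in replicate 2.

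Among 12 other RGS genes, 2 had a promoter peak (beside 8.39% of all protein-coding genes) and 7 had one within 5 kb (beside 23.3%). The promoter peaks were at *rgs-6*, with 75.4 (rank 343), and at *rgs-1*, with 42.3 (rank 1080). Of 7 regulators of G proteins and receptors, all had one within 5 kb (beside 23.3% of all genes) and 3 had it in the promoter window (beside 8.39%). These 3 were *grk-1*, a receptor kinase gene, with 58.0, *gpr-2*, a GoLoco protein gene, with 30.5, and *ags-3*, a gene of the same protein class, with 28.7. Each of these peaks also lay in the promoter window of a neighbour, F19C6.2 at *grk-1*, *rgr-1* at *gpr-2* and *ift-81* at *ags-3*. The *grk-1* and *gpr-2* peaks had no replicate 1 summit within 100 bp, and that of *ags-3* had rank 14858 there. The other regulators had no peak in their own promoter window. A peak at *ric-8* lay in the promoter windows of *mdf-2* and *nduv-3*. The peak at *arr-1* lay in that of *sms-2* and the peak at *gpr-1* in that of *dnj-10*. The *grk-2* peak lay 4900 bp upstream, in no promoter window. *gpr-1* and *gpr-2* are close copies, so their reads may be shared.

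The Gs branch had 5 of 13 genes with a promoter peak, beside 8.39% of all protein-coding genes. They were the adenylyl cyclase gene *acy-1* (57.9), the phosphodiesterase genes *pde-4* (53.0) and *pde-6* (44.4), *kin-1*, the catalytic subunit of protein kinase A (48.5), and *crh-1*, the CREB transcription factor (33.5). The summit lay 35 bp upstream of a start at *acy-1* and 4 bp upstream at *kin-1*. Of these 5, *crh-1* had no replicate 1 summit within 100 bp, and *pde-6*, whose peak was shared with Y95B8A.6, had rank 12241 there. Genes at or below Gq and Go had 1 of 20, the protein kinase C gene *pkc-1* (32.6), and 10 within 5 kb, beside 23.3% of all genes. Transmitter receptors had 0 of 24 in the promoter window, beside 8.39% of all genes, and 5 within 5 kb (20.8%, beside 23.3%). The lists are small, and differences between them were not tested. The highest signal among the receptors was near *gbb-1*, a GABA-B receptor gene, with 82.9 (rank 280).

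As a check of the labelled factor, the *lin-11* locus had 5 optimal peaks in the gene body or within 5 kb, the strongest at 152.7 (rank 39). The strain carries a *lin-11* transgene, so native and introduced copies cannot be told apart there. These peaks are therefore no check of the labelled factor.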

How the data were processed

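ChIP-seq was done on 2 biological replicates of whole L2 larvae. Per the deposited notes, the candidate lists were input for the irreproducible discovery rate procedure and came from the alignment of each replicate or of both, with a further file that the control-normalized tracks also use. The optimal list came from that procedure. The read depth is unknown, since it is not given in the sources used here, and so are the caller, aligner and threshold. The 4 ce11 lists were used, and the 4 ce10 lists were not. Per the file format, the deposited columns used were a signal, a −log10 q-value and a summit offset in bp, all set by the authors. In the pooled list 1749 regions tied at the highest deposited −log10 q-value, 3.54, and ranks therefore follow the deposited signal. How signals were scaled is not stated, so none is set against a signal of another list by size.

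A summit is the region start plus the offset, counted from 1. The ce11 and WBcel235 assemblies are the same, and genes are from Ensembl 115. Summits matched at 100 bp or less. Places were assigned in the order promoter window, coding exon, UTR, other exon, intron, intergenic. All counts were made with Python 3.11.15 and pandas 2.3.3, and the assignment was tested on simulated summits. The replicate numbers mark biological replicates, but the single group leaves no contrast and no p-value. The genes and gene lists were chosen with earlier results of these data known. Named were the 10 genes with each optimal peak and the strongest other candidate, and the neighbours that share a region named here. Also named were the 2 regions on each side of the *egl-30* peak by signal, and the list genes with a promoter peak. In a list with none the gene of highest signal was named, and in the lists of regulators and of gamma subunits every gene. The listed names nca-1 and rgs-8.2 had no match, and rgs-8.1 stood for 2 near-identical genes. Alternatives covered the distance from the gene, region overlap, the promoter window, gene assignment, the stronger 50% of peaks, the match distance and each replicate left out, with the 1917 strongest regions of the one kept used in place of the optimal peaks.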

Additional observations from a re-analysis of the deposited data

How the results depend on the processing

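Of 43 alternatives computed, 30 left the count within 1.5 times its value and 13 moved it further; all 13 lowered it, under a narrower rule or a shorter list. With the gene body only, 4 genes had an optimal peak (beside 2.25% of all protein-coding genes), with 7 peaks and 61 pooled candidates, and 9 further pathway genes had one. With 1 kb on each side these counts were 4 (beside 11.4%), 11, 73 and 18. In the stronger 50% of optimal peaks, 9 peaks lay at the genes, 7 of them matched in both replicates, and 7 further pathway genes had a promoter peak (beside 4.84% of all genes) and 23 a peak within 5 kb (beside 13.4%). With the nearest transcript start only, 20 further pathway genes had one (beside 8.48%). Leaving out 1 replicate gave 8 to 9 genes (beside 22.1 to 23.3% of all), 17 to 19 peaks, 4 to 5 genes with a promoter peak (beside 7.79 to 8.3%), 12 pathway genes in either case by promoter and 34 to 36 within 5 kb. Without replicate 1, *unc-73* joined the 8 genes, and without replicate 2 it took the place of *dgk-1*. No paired analysis was possible because there is 1 group. Read depth is unknown, so binding at *egl-8* and *unc-73* below the authors' threshold is not shown to be absent.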

Other observations

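Some regions at these genes were strong in 1 replicate and had no optimal summit within 100 bp. Replicate 1 had 19 of its 1917 strongest regions at the 10 genes, of which 11 matched an optimal peak, 7 another pooled candidate and 1 no pooled summit within 100 bp. Replicate 2 had 17, of which 15 matched an optimal peak and 2 no pooled summit. The same split over all 1917 strongest regions of each replicate is not given here. Nothing particular to the 10 genes is therefore read from these counts.

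At *unc-73* both replicates had a strong region in the same part of the gene, but their summits did not match within 100 bp. Replicate 1 had it at I:4005721-4006050 in a coding exon, with a signal of 20.5 (rank 825), and replicate 2 at I:4005516-4005839 in an intron, with 20.0 (rank 1593). The pooled candidate matched by replicate 1 there also lay in the gene F55C7.2. At *gpb-1*, in intergenic sequence upstream of the gene, replicate 2 had a region of 20.3 (rank 1567). It overlapped pooled candidates of 27.5 and 24.0, and its summit lay between theirs. At *eat-16*, replicate 1 had a second promoter summit, 200 bp upstream of the start, with 13.4 (rank 1787). Its region overlapped the optimal peak in that promoter.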
